A study of Mus musculus with 58 samples.

Results

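Fos, Fosb, Jun, Junb, Jund, Atf3, Egr1, Ier2, Dusp1 and Zfp36 are genes of the AP-1 and Egr immediate early programme, and they were followed across 58 single mouse bone marrow cells. The 10 genes were chosen by name from the 23152 rows of the count table, as a set that may respond when tissue is taken apart into cells. All 10 had counts. The cells came from wild-type C57BL/6 mice, and 1 sorted cell is 1 column. Long-term haematopoietic stem cells (LT-HSC, 34 cells) were sorted as Lin- cKit+ Sca1+ Flt3- CD34-, and common myeloid progenitors (CMP, 24 cells) as Lin- cKit+ Sca1- CD16/32- CD34+. No treatment, age or animal is named for any cell, and every cell also carries a label of passages 8-10, whose meaning is not given.

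The cells are described in 4 sets by their number in the labels: LT-HSC 1-16 (16 cells), LT-HSC 17-34 (18 cells), CMP 1-2 (2 cells) and CMP 3-24 (22 cells). No label makes this cut. Because no animal is named, each gate is treated as 1 sample and cells are not its replicates. No difference below was tested, no p-value is given, and every interval is a 95% interval for counting error only.

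The sets differed in more than the immediate early genes. CMP 1 and CMP 2 had no count of Xist, the RNA that coats the inactive X chromosome of female cells, and 88 and 7 counts from Y-linked genes. CMP 3-24 had 7 to 226 Xist counts and at most 1 Y-linked count. No LT-HSC had an Xist count. Y-linked counts ran from 0 to 164 in LT-HSC 1-16 (median 24.5) and from 0 to 482 in LT-HSC 17-34 (median 13.5). The CMP gate may thus hold cells of more than 1 donor, and which cell came from which donor is not given. Gate, sex of the donor and set therefore cannot be told apart for LT-HSC against CMP 3-24. Sex of the donor and set likewise cannot be told apart for CMP 1-2 against CMP 3-24. The pool of the whole CMP gate joins both of these sets. A cell held a median of 211044 counts in LT-HSC 1-16, 306454 in LT-HSC 17-34, 644013 in CMP 1-2 and 264742 in CMP 3-24. All 12 stem cell markers had counts in LT-HSC 1-16 and also in CMP 3-24, 11 in LT-HSC 17-34 (Hoxb5 at 0) and 4 in CMP 1-2, so detection alone did not separate the gates. Their summed level did so in the median cell, at 14.9 per 10000 counts in LT-HSC 1-16, 7.87 in LT-HSC 17-34, 1.07 in CMP 1-2 and 2.49 in CMP 3-24, with overlapping ranges. Of 9 granulocyte and monocyte progenitor markers, 8, 7, 8 and 9 had counts in these sets in turn, and the median sums were 2.51, 4.81, 34.3 and 51.1 per 10000. The stem cell markers Procr, Hlf and Mecom were at 0 in CMP 1-2.

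Immediate early genes are transcribed within minutes of a stimulus, without new protein synthesis, because the factors that switch them on already sit in the cell. Serum response factor with its Elk partners, and the cyclic AMP response element binding protein CREB, receive the signal from MAP kinases and other kinases. Fos and Jun family proteins pair through leucine zippers to form AP-1, Egr1 binds GC-rich sites through zinc fingers, and Dusp1 and Zfp36 close the response by removing phosphate from MAP kinases and by speeding decay of AU-rich mRNAs. Warm enzymatic or lengthy handling of tissue is known to raise this programme in many cell types. The same genes also respond to cytokines and adhesion in the marrow, and AP-1 members have been studied in stem cell quiescence and myeloid differentiation.

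The promoters show some of the sequences through which this signal is read. RefSeq promoter sequences (build GRCm38.p6), looked up by symbol, were searched for 8 of the 10 genes. Egr1 and Ier2 were not searched, so the counts of matches below say nothing about them. Each window ran from 250 bases before to 50 bases after the start site and was searched on both strands. The sequences below give the 250 bases before the start, 5′ to 3′ along the gene, for a gene of each kind of match. Capitals mark the matches, and positions are counted back from the start site, whose neighbour is -1.
Fos, chr12:85473640-85473889, plus strand: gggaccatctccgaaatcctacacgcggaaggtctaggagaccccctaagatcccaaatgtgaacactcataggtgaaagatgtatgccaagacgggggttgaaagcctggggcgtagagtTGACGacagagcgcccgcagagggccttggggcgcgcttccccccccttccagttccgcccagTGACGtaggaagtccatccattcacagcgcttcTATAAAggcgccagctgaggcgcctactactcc
Fosb, chr7:19310046-19310295, minus strand: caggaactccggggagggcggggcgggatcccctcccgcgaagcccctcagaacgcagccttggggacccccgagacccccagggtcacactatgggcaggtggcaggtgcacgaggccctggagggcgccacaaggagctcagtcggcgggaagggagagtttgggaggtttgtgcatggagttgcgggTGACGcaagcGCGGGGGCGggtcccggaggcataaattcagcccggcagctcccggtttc
Jun, chr4:95052223-95052472, minus strand: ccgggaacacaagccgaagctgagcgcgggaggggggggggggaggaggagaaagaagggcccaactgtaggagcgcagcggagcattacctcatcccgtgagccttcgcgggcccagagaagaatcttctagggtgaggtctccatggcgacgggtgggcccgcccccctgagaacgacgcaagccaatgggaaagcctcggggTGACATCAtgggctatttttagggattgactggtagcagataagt
Dusp1, chr17:26508473-26508722, minus strand: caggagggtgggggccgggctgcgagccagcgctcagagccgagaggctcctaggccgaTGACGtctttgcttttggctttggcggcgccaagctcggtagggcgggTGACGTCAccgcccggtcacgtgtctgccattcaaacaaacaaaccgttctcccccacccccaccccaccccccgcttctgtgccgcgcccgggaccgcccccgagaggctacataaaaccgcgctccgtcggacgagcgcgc
Zfp36, chr7:28379229-28379478, minus strand: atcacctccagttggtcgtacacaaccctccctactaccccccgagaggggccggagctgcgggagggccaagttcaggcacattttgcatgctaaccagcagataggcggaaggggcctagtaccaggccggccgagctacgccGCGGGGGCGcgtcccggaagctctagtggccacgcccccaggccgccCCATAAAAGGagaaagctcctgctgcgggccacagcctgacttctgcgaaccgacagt

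The cyclic AMP response element TGACGTCA, a site for CREB and ATF proteins, was in 1 of the 8 windows, that of Dusp1 at -143, and in 1.79% of all 32851 RefSeq promoters. Its first 5 bases, TGACG, were in 5 of the 8 (Fos, Fosb, Junb, Atf3 and Dusp1) and in 20.8% of all promoters; every full element also holds this shorter match. TGACATCA, the form of the site known from the Jun promoter, began at -45 in Jun, and 3.62% of all promoters held it. The Egr site GCGNGGGCG was in 2 of the 8, Fosb at -50 and Zfp36 at -105, against 5.55% of all promoters. The CArG box, the core that serum response factor binds, was in Zfp36 at -58 and in 1.63% of all promoters. The TATA box TATAAA was in Fos at -33 and in Junb at the RefSeq start itself, against 13.6% of all promoters. GENCODE places the Junb start further downstream, at 84978718. The AP-1 site TGANTCA was in none of the 8 windows and in 7.81% of all promoters. The Jund window held none of these. Its 250 bases before the start end at 70697738, while GENCODE starts the gene at 70698949, so the bases next to that start were not searched. The Dusp1, Atf3 and Zfp36 windows lie inside the genes as GENCODE gives them. A match is a run of letters in this window and no evidence of binding.

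The 10 genes summed to 30.4 counts per 10000 in the median cell of LT-HSC 1-16, with a lowest cell at 0.37 and a highest at 75.4. The median LT-HSC 17-34 cell held 5.09 (0.40 to 19.2). CMP 1 and CMP 2 held 1.66 and 4.00, and the median CMP 3-24 cell held 22.7 (2.28 to 73.1). LT-HSC 1-16 and CMP 3-24 thus covered nearly the same range, and LT-HSC 17-34 lay lower but overlapped both. Of the 16 cells in LT-HSC 1-16, 11 lay above the highest LT-HSC 17-34 cell, as did 14 of the 22 cells in CMP 3-24. Both CMP 1-2 cells lay below 21 of those 22 cells. LT-HSC 1-16 was itself uneven: LT-HSC 7 held 983 Fos counts and the highest sum, while LT-HSC 15 held 1 Fos count and the lowest sum of all 58 cells.

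**Figure D1:**
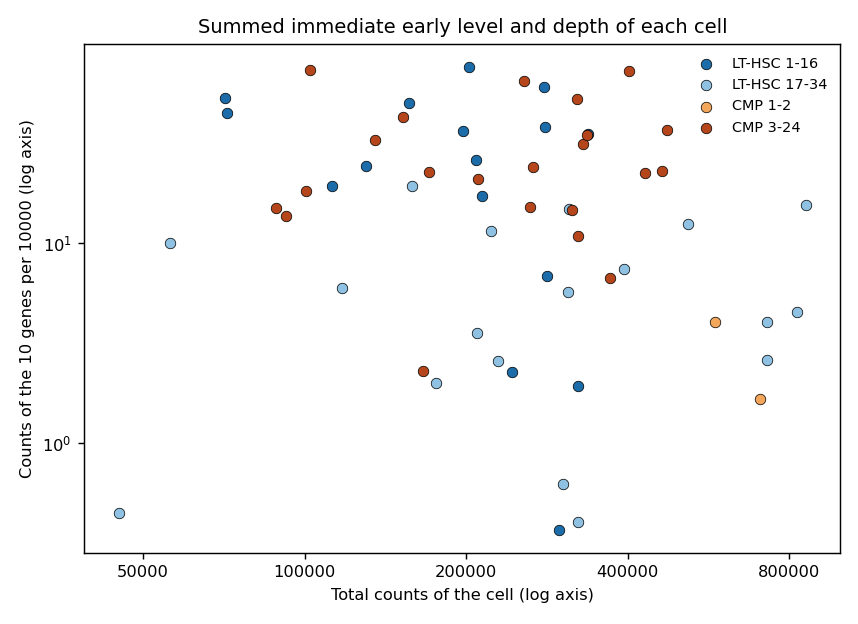
Counts of the 10 genes per 10000 counts of a cell (vertical, log axis) against the total counts of the cell (horizontal, log axis), 1 point a cell, coloured by set. LT-HSC 1-16 and CMP 3-24 share the upper part, LT-HSC 17-34 reaches 19.2 at most, and the deep CMP 1-2 cells lie at 1.66 and 4.00.

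Depth went with this sum in LT-HSC 1-16 more than in the other sets. Over cells, Spearman's rho between the summed level and the total count was -0.47 in LT-HSC 1-16 (n = 16), 0.14 in LT-HSC 17-34 (n = 18) and 0.16 in CMP 3-24 (n = 22); the total is also the divisor of the level. After every cell was thinned to 97978 counts, which left 52 cells, the median number of the 10 genes with at least 10 counts was 4 in LT-HSC 1-16, 2 in LT-HSC 17-34 and 5.5 in CMP 3-24. Before thinning it was 5, 2 and 7.

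Among the AP-1 genes, Fos was the clearest case of a gene that some cells held at high counts and others nearly lacked. Fos protein cannot pair with itself and needs a Jun partner. In LT-HSC 1-16 its lowest cell had 0 CPM (counts scaled to a common total per cell), the median 193 and the highest 4846. In LT-HSC 17-34 the 3 values were 3.21, 11.1 and 1010, in CMP 3-24 they were 52.5, 426 and 2689, and CMP 1 and CMP 2 had 56.6 and 217. The 2 LT-HSC sets overlapped, yet 9 of 16 cells against 3 of 18 had at least 10 Fos counts, and 21 of 22 CMP 3-24 cells did. Pooled over the cells of LT-HSC 1-16, Fos reached 1050 CPM (1015 to 1084), and over those of LT-HSC 17-34 it reached 103 CPM (95.3 to 111). The log2 ratio between these pools was 3.35 (3.23 to 3.47). A single cell, LT-HSC 18, carried 63.5% of the lower pool, and leaving it out gave 4.60. The CMP 3-24 pool was at 1016 CPM, and LT-HSC 1-16 differed from it by a log2 ratio of 0.046 (-0.014 to 0.11).

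Fosb, the close relative of Fos, was lower in both LT-HSC sets than in CMP 3-24. Its median cell had 1.79 CPM in LT-HSC 1-16 (0 to 377), 0 in LT-HSC 17-34 (0 to 224) and 46.6 in CMP 3-24 (0 to 998). Both LT-HSC sets thus held mostly cells at or near 0, with a few high cells inside the CMP range. The pools of LT-HSC 1-16, LT-HSC 17-34 and CMP 3-24 stood at 38.4, 18.4 and 182 CPM, and the first differed from the last by -2.24 (-2.51 to -1.98) on the log2 scale. That value was -2.85 without LT-HSC 14 and -1.37 with the mean of the cells' CPM in place of the pool. Among cells with at least 10 Fos counts, Fosb also had at least 10 in 2 of 9 in LT-HSC 1-16 (22.2%, exact Clopper-Pearson interval 2.81 to 60.01) and in 12 of 21 in CMP 3-24 (57.1%, 34.02 to 78.2), and these intervals overlap. LT-HSC 32 carried 73.3% of the Fosb counts of LT-HSC 17-34. Between the LT-HSC sets the Fosb ratio was 1.06 (0.69 to 1.43) on the log2 scale and 2.86 without that cell. It fell under 2-fold without LT-HSC 14 (0.44) and without the shallow cells, those under 97978 counts (0.78), and with the mean of the cells' CPM it was 2.03.

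Jun, the partner with which Fos forms the classical AP-1 dimer, had a pooled level within 2-fold between the LT-HSC sets. Its lowest, median and highest cells were at 0, 5.36 and 545 CPM in LT-HSC 1-16, 0, 5.73 and 232 in LT-HSC 17-34, and 0, 101 and 1458 in CMP 3-24. About 1 in 3 cells of each LT-HSC set (5 of 16 and 6 of 18) had at least 10 Jun counts, against 11 of 22 in CMP 3-24. Pooled Jun was at 72.1 CPM in the first of these sets and 59.96 in the second. Their log2 ratio was 0.27 (0.031 to 0.50), and -0.15 without LT-HSC 13 or -0.11 without the shallow cells. By the mean of the cells' CPM, 111 against 55.3, the log2 ratio was 1.001, at the 2-fold line. Both were below the 353 CPM of CMP 3-24, with log2 ratios of -2.29 (-1.57 by the mean of the cells' CPM) and -2.55. CMP 1-2 together had 3 Jun counts, a log2 ratio to CMP 3-24 of -7.02 (-9.52 to -5.69).

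Junb and Jund, the other Jun proteins, often act against Jun in growth control. The median Junb cell was at 99.4 CPM in LT-HSC 1-16 (0 to 702), 7.97 in LT-HSC 17-34 (0 to 301) and 109 in CMP 3-24 (11.3 to 744), so LT-HSC 1-16 and CMP 3-24 covered the same range. Pooled Junb was 179, 33.3 and 177 CPM in these sets in turn, and the LT-HSC sets differed by 2.42 (2.20 to 2.65) on the log2 scale, or by 1.70 after thinning each cell to a fixed number of counts. Jund was at a median of 12.8 CPM in LT-HSC 1-16 (0 to 503), 3.55 in LT-HSC 17-34 (0 to 125) and 70.7 in CMP 3-24 (0 to 349). No LT-HSC 17-34 cell had 10 Jund counts, against 5 of 16 and 15 of 22, and the whole set held 33. The pooled log2 ratio of Jund was 2.90 (2.35 to 3.51) between the LT-HSC sets and -1.26 (-1.55 to -0.98) for LT-HSC 1-16 to CMP 3-24. By the mean of the cells' CPM these were 2.29 and -0.64, so the second was then within 2-fold, and after thinning the second was -1.86.

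Atf3, a stress-induced repressor of the ATF family that can pair with Jun proteins, was nearly absent from the LT-HSC counts. It had 1 count in LT-HSC 1-16 and 1 in LT-HSC 17-34, and none in CMP 1-2, where the floor for a count of 0, taken as 3 counts over the pool, was 2.33 CPM. CMP 3-24 held 160 counts in 12 cells, of which 142 lay in CMP 3 (299 CPM). In the other 21 cells of that set it had 0 to 4 counts. LT-HSC 1-16 differed from CMP 3-24 by -5.98 (-11.87 to -4.06) on the log2 scale, and by -2.99 without CMP 3.

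**Figure D2:**
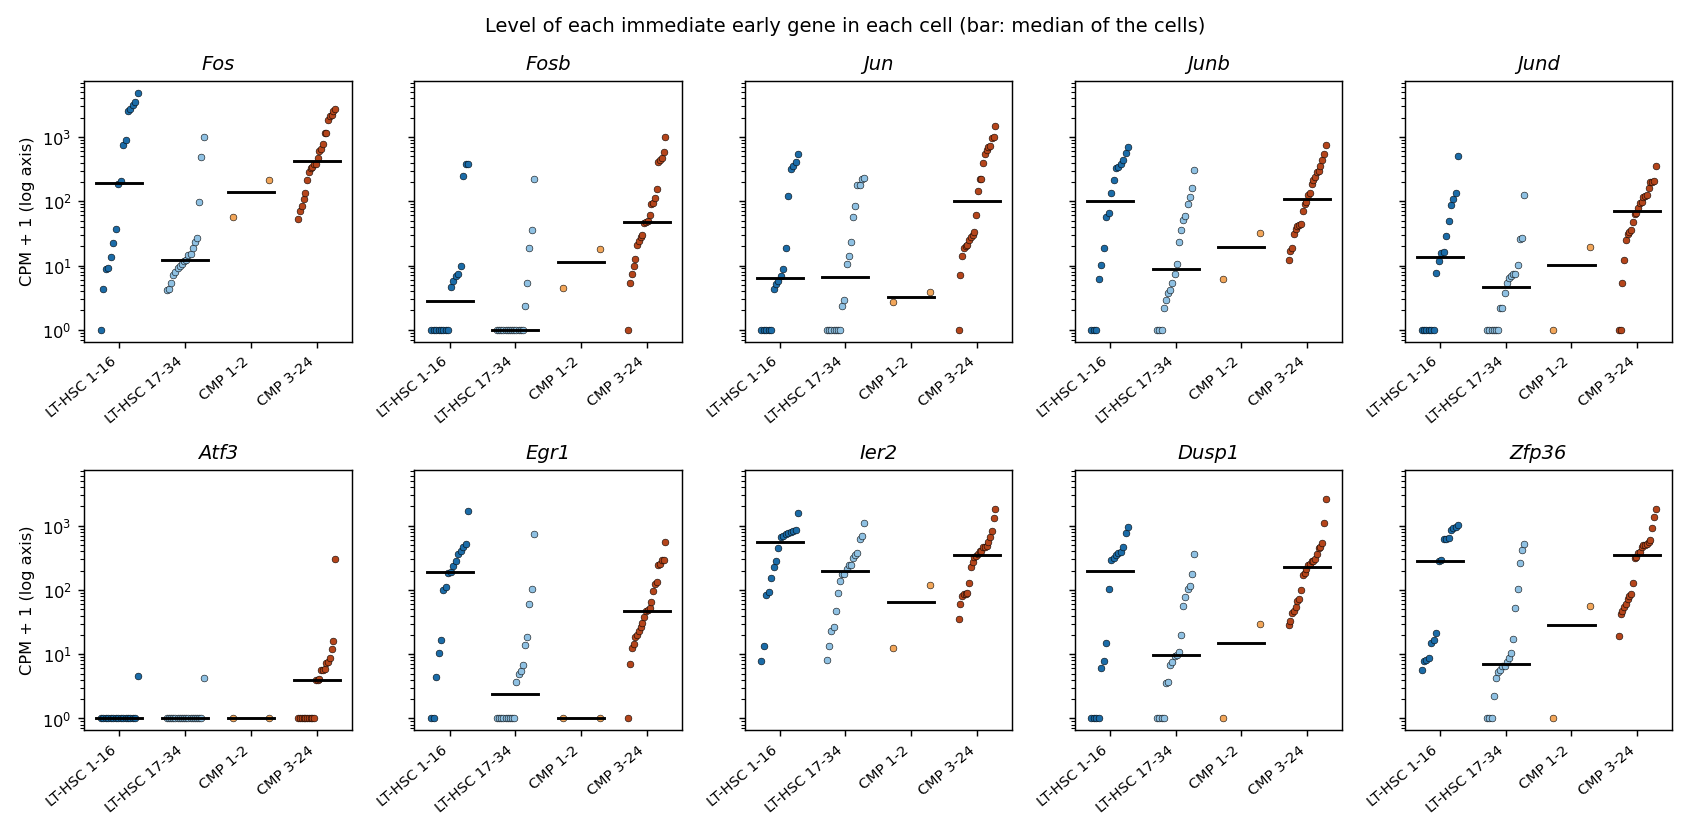
CPM plus 1 on a log axis for each of the 10 genes, 1 panel a gene, 1 point a cell in the 4 sets, cells sorted within a set; the bar is the median cell. Fos, Junb, Egr1, Dusp1 and Zfp36 fill the upper range in LT-HSC 1-16 and CMP 3-24. Fosb and Jun do so mainly in CMP 3-24. Atf3 is high only in the cell CMP 3.

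Egr1, the zinc finger factor that restrains stem cell division and exit from the niche in mouse knockouts, stood higher in LT-HSC 1-16 than in CMP 3-24. In LT-HSC 1-16 the lowest, median and highest cells were at 0, 186 and 1695 CPM. LT-HSC 17-34 had 0, 1.37 and 738, and CMP 3-24 had 0, 46.1 and 558. The sets overlapped, and 11 of the 16 LT-HSC 1-16 cells were above the CMP 3-24 median, against 3 of the 18 LT-HSC 17-34 cells. Pooled Egr1 was 282 CPM (264 to 300) over LT-HSC 1-16, 32.4 (28.1 to 37.0) over LT-HSC 17-34 and 90.7 (83.1 to 98.9) over CMP 3-24. The log2 ratio of LT-HSC 1-16 was 3.12 (2.90 to 3.34) to LT-HSC 17-34 and 1.63 (1.48 to 1.79) to CMP 3-24. LT-HSC 28 carried 55.5% of the LT-HSC 17-34 pool, and the first ratio was 4.25 without it. LT-HSC 9 carried 36.8% of the LT-HSC 1-16 pool, and the second ratio was 1.06 without it. The first ratio was 2.40 after thinning and 2.44 by the mean of the cells' CPM. CMP 1-2 had no Egr1 count. Set to the same floor of 3 counts, it was 39.0-fold lower than CMP 3-24. The interval of that log2 ratio reached up to -4.98, a smaller difference. Egr1 lies at chromosome 18, 34859823 to 34864984, plus strand (GENCODE M21, mm10).

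Ier2, a small nuclear protein induced with the AP-1 genes, had counts in every one of the 58 cells. Its median cell had 558 CPM in LT-HSC 1-16 (6.70 to 1554), 195 in LT-HSC 17-34 (7.23 to 1111) and 348 in CMP 3-24 (33.7 to 1816). These ranges nearly coincide, and 14 of 16, 13 of 18 and 21 of 22 cells had at least 10 counts. The pooled log2 ratio was 0.63 (0.53 to 0.73) between the LT-HSC sets and 0.063 (-0.032 to 0.16) for LT-HSC 1-16 to CMP 3-24. It made up 38.8% of the counts of the 10 genes in LT-HSC 17-34 and 15.5% in LT-HSC 1-16, while Fos made up 14.5% and 38.1%.

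The feedback genes Dusp1 and Zfp36 were also higher in LT-HSC 1-16 than in LT-HSC 17-34. Dusp1, the phosphatase that switches off the p38, JNK and ERK kinases, had a median cell of 199 CPM in LT-HSC 1-16 (0 to 944), 8.60 in LT-HSC 17-34 (0 to 359) and 225 in CMP 3-24 (27.8 to 2642). Pooled Dusp1 was 280, 95.4 and 297 CPM in these sets in turn, and the LT-HSC sets differed by 1.55 (1.41 to 1.70) on the log2 scale. LT-HSC 18, the cell with the highest Fos count of its set, held 49.7% of the Dusp1 counts of LT-HSC 17-34, and without it the ratio was 2.34. It was 2.32 after thinning and 2.26 by the mean of the cells' CPM. Zfp36, also called tristetraprolin, had a median cell of 284 CPM in LT-HSC 1-16 (4.68 to 1019), 6.05 in LT-HSC 17-34 (0 to 514) and 348 in CMP 3-24 (18.04 to 1826). In LT-HSC 1-16 the Zfp36 cells fell apart into 7 with 1 to 5 counts and 9 with 55 to 315, and 7 of the 16 were above every LT-HSC 17-34 cell. The pooled log2 ratio was 2.15 (2.01 to 2.29) between the LT-HSC sets, and 2.93 without LT-HSC 21, which held 46.6% of the lower set's counts.

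Low counts of any gene need care in these cells. S100a8, a gene of mature neutrophils, had counts in all 34 LT-HSC with a median of 42.5, and at least 10 in 32 of them. Elane, a progenitor granule gene, reached 10 in none. Mpo, another such gene, did so in 6 of the 34, all of them in LT-HSC 17-34. Prtn3 had pooled levels of 329 CPM (LT-HSC 1-16) and 417 CPM (LT-HSC 17-34). Elane alone therefore does not show that progenitor granule RNA was absent from LT-HSC. The Fos median of 3 counts in LT-HSC 17-34 lies below that S100a8 level. The shares of LT-HSC with at least 10 counts of a member are likewise below the S100a8 share, so they count cells and are not read as shares of expressing cells. Neutrophils also transcribe Fos, Junb and Zfp36. All 9 neutrophil markers had counts in both LT-HSC sets, and their sum ran from 2.19 to 4.47 per 10000 in LT-HSC 1-16 and from 2.21 to 6.06 in LT-HSC 17-34. In the CMP the same sum differed by cell number: its median was 10.2 per 10000 in CMP 3-16 and 0.299 in CMP 17-24. The 10 immediate early genes summed to medians of 21.7 and 27.6 in the same cells, a cut made after the values were seen. The part of neutrophil RNA in the members' counts was not tested. Markers of other types were uneven. The T or NK marker sum had a median of 0 per 10000 in LT-HSC 1-16 (highest cell 0.14) and of 2.78 in LT-HSC 17-34 (highest 16.9), all of it from Nkg7, 1 of 5 markers, with Cd3e, Cd3d, Cd3g and Klrd1 at 0. The dendritic cell sum reached 7.31 in LT-HSC 1-16 and 9.85 in LT-HSC 17-34 (medians 0.075 and 1.35), and the B cell sum 2.19 and 5.003, from 1 of 6 markers, with Pax5, Ebf1 and Cd79a at 0. In CMP 3-24 the T or NK sum had a median of 4.62 (highest 12.1), mast cell and basophil markers reached 37.8, and monocyte and macrophage markers 17.3, with Adgre1 at 0. The part of these in the members' levels was not tested.

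The 10 genes were set beside all genes of the table, first between the LT-HSC sets. Of the 9 with at least 20 counts over both pools, 7 stood at least 2-fold above LT-HSC 17-34 in LT-HSC 1-16, and 0 at least 2-fold below, where 26.8% of the 9669 genes measured were at least 2-fold higher and 29.5% at least 2-fold lower. The list median was a log2 ratio of 2.15 and the median of all genes -0.10. Jun and Ier2 were the 2 within 2-fold. By the mean of the cells' CPM 8 were at least 2-fold higher, with Jun added, and without the shallow cells 6, with Fosb lost. The shares of all genes were not computed under these alternatives, so nothing is read from the 8 and the 6. No gene of the 10 had sets of cells that lay fully apart, but the share of all genes that did was not computed, so nothing is read from this.

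For LT-HSC 17-34 to CMP 3-24 the list median was -2.48, against -0.24 over all genes. Of the 10 genes, 9 were at least 2-fold lower in LT-HSC 17-34, against 34% of the 10232 genes measured, and 0 at least 2-fold higher, against 19.5%. Ier2 was the exception at -0.57 (-0.66 to -0.48). Egr1, at -1.49 (-1.73 to -1.25), was within 2-fold after thinning (-0.89). For LT-HSC 1-16 to CMP 3-24 the list median was -0.039 (all genes -0.36). There 4 of 10 were at least 2-fold lower in LT-HSC 1-16 (Fosb, Jun, Jund and Atf3), against 37.2% of 10301 genes, and 1 was at least 2-fold higher (Egr1), against 22% of them. Fos, Junb, Ier2, Dusp1 and Zfp36 lay between -0.088 and 0.064 on the log2 scale. These comparisons share their CMP or LT-HSC cells and are not independent of each other.

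Over the whole gates, LT-HSC to CMP, the list median was -0.92 and that of all genes -0.13. Here 4 of 10 were at least 2-fold lower in LT-HSC (Fosb, Jun, Jund and Atf3), against 28.1% of 10937 genes, and 0 of 10 were at least 2-fold higher, against 22.7%. Fos stood just inside the line at -0.998 (-1.05 to -0.94). It crossed the line without the shallow cells (-1.07) and without CMP 1 and 2 (-1.25), and was -0.37 by the mean of the cells' CPM and -0.47 after thinning. The same line was crossed by Junb without CMP 1 and 2 (-1.09) and without LT-HSC 16 (-1.16), by Fos without LT-HSC 7 (-1.35), and by Dusp1 by the mean of the cells' CPM (-1.17) and after thinning (-1.20). Without CMP 1 and 2, 6 of 10 were at least 2-fold lower. The share of all genes was not computed for that cut, so nothing is read from this count. Egr1 stood at 0.67 (0.52 to 0.82). The gate value of a gene such as Fos therefore lies between sets that differ by 3.35 on the log2 scale.

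CMP 1-2 differed most from CMP 3-24, a comparison in which sex of the donor and set cannot be told apart. All 10 genes were at least 2-fold lower in CMP 1-2, with 48.6% of the 9527 genes at least 2-fold lower, and the list median was -3.95 (all genes -0.87), or -3.74 with the genes at 0 set to their bound. Fos was at -2.98 (-3.21 to -2.76), Ier2 at -2.77 (-3.12 to -2.45) and Junb at -3.17 (-3.83 to -2.62). Atf3, without a count there, was 11.9-fold lower when set to the floor of 3 counts. The interval of its log2 ratio reached up to -3.26, a smaller difference. CMP 1 alone held the Dusp1 counts (20) and CMP 2 alone the Zfp36 counts (32), so with 2 cells each value rests on 1 of them.

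**Figure D3:**
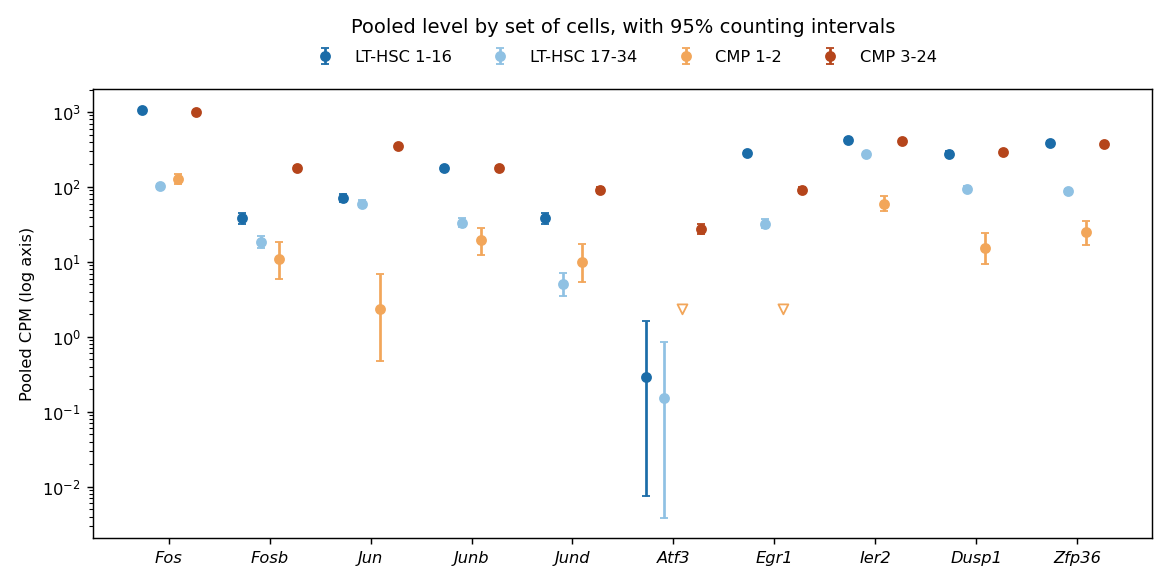
Pooled CPM (vertical, log axis) of each gene in the 4 sets, with exact Poisson 95% intervals for counting error; open triangles mark the floor of 3 counts over the pool where a set had no count. For Fos, Junb, Ier2, Dusp1 and Zfp36 the LT-HSC 1-16 and CMP 3-24 points coincide, and for Jun, Fosb, Jund and Atf3 the CMP 3-24 point is the highest.

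Other genes of the programme were read from lists. Of 39 other immediate early genes, 27 had at least 20 counts over the LT-HSC sets, 16 of them at least 2-fold higher in the first set, 3 at least 2-fold lower (26.8% and 29.5% of all genes), with a median log2 ratio of 2.04. Klf10, a TGF-beta induced factor, had 152 CPM in the LT-HSC 1-16 pool and 21.6 in that of LT-HSC 17-34 (log2 ratio 2.81, 2.55 to 3.10). Ier3, an anti-apoptotic early gene, was at 130 and 21.5 CPM (2.59, 2.32 to 2.88), and Mcl1, a survival protein of the Bcl-2 family, at 91.5 and 22.2 CPM (2.04, 1.75 to 2.34). Of 12 other AP-1 and bZIP genes measured, 6 were at least 2-fold higher and 5 at least 2-fold lower, again against 26.8% and 29.5% of all genes. Atf4, the effector of the integrated stress response, was at 416 and 108 CPM (1.95, 1.82 to 2.09), Batf2 at 3.52 and 50.8 CPM (-3.79, -4.82 to -3.03) and Creb1, which binds the cyclic AMP response element, at 17.9 and 47.4 CPM (-1.40, -1.83 to -1.01).

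The counts for the pathway and decay lists stand beside the same 26.8% higher and 29.5% lower over all genes, and nothing is read from those near it. Of 23 MAP kinase and serum response factor pathway genes, 9 stood at least 2-fold above LT-HSC 17-34 in LT-HSC 1-16 and 5 at least 2-fold below (median 0.81). Mapkapk2, the kinase below p38, had 39.0 CPM in the first set against 0.92 in the second (5.30, 4.25 to 6.88). Mapk9, which encodes JNK2, was at 12.02 and 38.5 CPM (-1.66, -2.19 to -1.20). Of 7 other feedback genes 2 were higher and 2 lower (median 0.18). Of 13 decay factors of the Zfp36 kind 2 were higher and 3 lower (median -0.28). Zfp36l1, a relative of Zfp36, was at 20.5 and 0.61 CPM (4.90, 3.64 to 6.98), while Hnrnpd, which also binds AU-rich mRNA, was at 38.1 and 122 CPM (-1.67, -1.96 to -1.41) and the deadenylase subunit Cnot6 at 9.68 and 36.7 CPM (-1.90, -2.49 to -1.39).

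Heat shock genes, which often rise with immediate early genes in handled cells, had a median log2 ratio of 0.25, with 6 of 15 at least 2-fold higher and 1 at least 2-fold lower in LT-HSC 1-16 (all genes 26.8% and 29.5%). Dnajb4 was at 61.0 and 4.75 CPM (3.66, 3.13 to 4.28), Dnajb1 at 186 and 78.5 CPM (1.24, 1.07 to 1.41), and Hspa5, the chaperone of the endoplasmic reticulum, at 110 and 264 CPM (-1.26, -1.42 to -1.10). Summed heat shock counts had medians of 51.5 per 10000 in LT-HSC 1-16 and 61.8 in LT-HSC 17-34. Their rho with the summed immediate early level was -0.11, -0.27 and -0.31 in LT-HSC 1-16, LT-HSC 17-34 and CMP 3-24. Abundant genes weigh most in this sum: Hspa8 (1759 and 2169 CPM in the LT-HSC sets), Hsp90ab1 (1240 and 1386) and Hsp90aa1 (642 and 1018). The 6 genes at least 2-fold higher, at 15.5 to 186 CPM in LT-HSC 1-16, weigh little, so the sum and its rho say little about them. Steadily expressed genes had a median of -0.24. S, G2 and M phase genes went the other way from the members: 32 of 35 were at least 2-fold lower in LT-HSC 1-16 and 0 higher, with a median of -3.19. Aurkb, a mitotic kinase, was at 4.69 and 88.9 CPM (-4.20, -5.06 to -3.53), and Dtl, of DNA replication control, at 1.76 and 40.3 CPM (-4.41, -5.98 to -3.38). Cenpf had 0 counts in LT-HSC 1-16 and 271 in LT-HSC 17-34. Within a set the cell cycle sum and the immediate early sum had a rho of -0.03, 0.29 and 0.05, and the part of cycling, handling or set in the result was not tested.

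**Figure D4:**
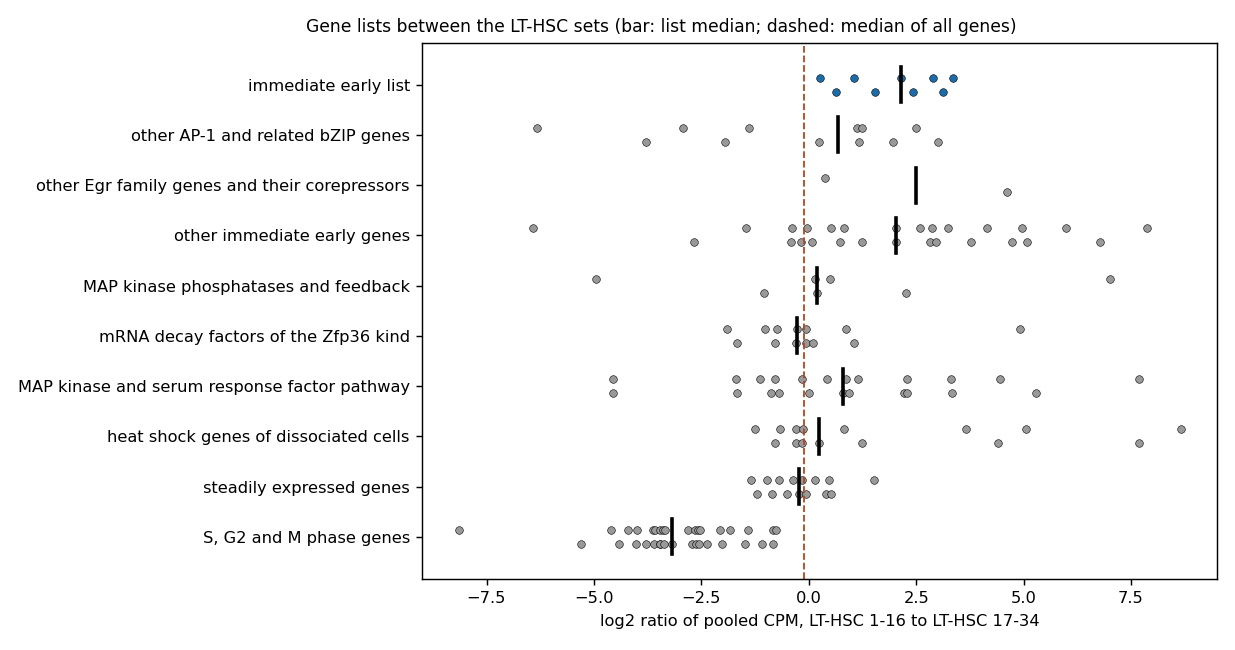
Log2 ratio of pooled CPM, LT-HSC 1-16 to LT-HSC 17-34 (horizontal), for each measured gene of 10 lists (rows); bars are list medians and the dashed line the median of all genes (-0.10). The immediate early list has its median at 2.15, the other immediate early genes at 2.04, and the S, G2 and M phase genes at -3.19.

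Cell by cell, the members varied together only loosely. Over the 36 pairs of the 9 genes without Atf3, the median Spearman's rho of log2(CPM + 1) was 0.26 in LT-HSC 1-16 (n = 16 cells), 0.15 in LT-HSC 17-34 (n = 18) and 0.32 in CMP 3-24 (n = 22). After thinning these were 0.14, 0.07 and 0.29. All levels of a cell share its total, and the values are descriptions with no test. The closest pairs were Ier2 with Dusp1 (0.76) and Junb with Dusp1 (0.73) in CMP 3-24, and Junb with Ier2 (0.75) in LT-HSC 1-16; after thinning they were 0.75, 0.75 and 0.62. The pairs of Fos ran from -0.11 (with Junb) to 0.33 (with Fosb) in CMP 3-24, and from 0.082 (with Egr1) to 0.53 (with Zfp36) in LT-HSC 1-16.

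**Figure D5:**
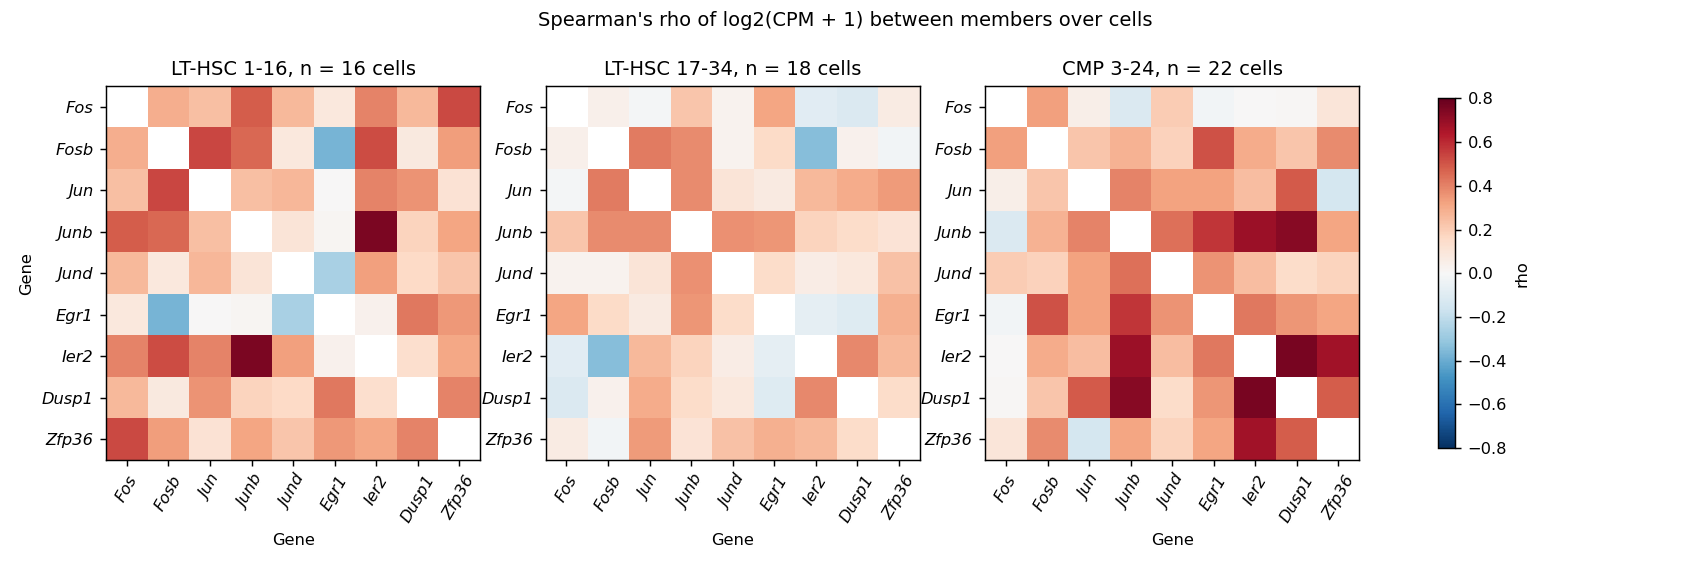
Spearman's rho between pairs of 9 of the genes over the cells of LT-HSC 1-16 (n = 16), LT-HSC 17-34 (n = 18) and CMP 3-24 (n = 22), red above 0 and blue below. Junb, Ier2 and Dusp1 form the darkest block in CMP 3-24, from 0.68 to 0.76.

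Over all 58 cells, the genes whose level followed the mean of the 10 most closely, among 4606 genes, included Fam210a (rho 0.65), Ppfia1 (0.65), Nfkbiz (0.64), Thap1 (0.64), Nr4a1 (0.61), Rrbp1 (0.61) and Cenpe (0.59), where the median gene had 0.16. Nfkbiz, a nuclear inhibitor of the I kappa B family, was at 32.5 CPM in LT-HSC 1-16, 7.97 in LT-HSC 17-34, 0 in CMP 1-2 and 32.9 in CMP 3-24. Nr4a1, an orphan nuclear receptor of the early response, was at 78.3, 8.28, 0 and 71.2 CPM. Cenpe, a mitotic motor, was at 2.05, 24.2, 22.5 and 76.9 CPM, so between the LT-HSC sets it went against most members. The 58 cells span sets that differ in gate, sex-linked RNA and genes detected (medians after thinning 3387, 3021, 4611.5 and 5499.5 in the same order). Such differences enter these rho values, and their part was not tested. Within LT-HSC 1-16 (n = 16, 3407 genes) the nearest were Hist1h2bc (0.76), Sesn1 (0.74), Repin1 (0.72), Prtn3 (0.70) and Ddx24 (0.68). Within CMP 3-24 (n = 22, 6742 genes) they were H3f3b (0.68), Gemin8 (0.65), Ubl7 (0.62), Capzb (0.61) and Cyb5a (0.61). Each within-set order keeps only the highest of many rho values over few cells. How high the top of such an order would reach for unrelated genes was not computed. The genes named within a set are therefore not read as partners of the programme. No gene was named in more than 1 of the 3 orders.

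Gene positions bear on what a count can mean. Junb (chromosome 8, 84974484 to 84978718, minus strand, GENCODE M21 on mm10) shares 351 bases at its end with Prdx2 on the opposite strand, which had 508, 631, 741 and 608 CPM in LT-HSC 1-16, LT-HSC 17-34, CMP 1-2 and CMP 3-24. Dusp1 (chromosome 17, 26505590 to 26562128, minus strand) shares 640 bases with Ergic1 at 33.7, 73.1, 1.55 and 14.2 CPM. That stretch lies at the start of Dusp1, far from the end of the gene. Opposite-strand genes without a row in the count table also overlap Jund (Gm11175, 919 bases), Zfp36 (Gm44710, 1274), Jun (Junos, 689) and Atf3 (Gm24748, 108). Further genes without a row lie within Dusp1, on either strand. Whether counting used the strand is not stated in the sources used here, so reads in these stretches cannot be told apart. The other genes lie at chromosome 12, 85473890 to 85477273 (Fos, plus strand), chromosome 7, 19302696 to 19310051 (Fosb, minus) and 28376784 to 28380253 (Zfp36, minus), and chromosome 4, 95049034 to 95052222 (Jun, minus). Jund lies at chromosome 8, 70698949 to 70700616 (plus), Ier2 at chromosome 8, 84661331 to 84662852 (minus), and Atf3 at chromosome 1, 191170296 to 191218039 (minus). All counts are per gene, so exon, intron and UTR reads are not separated.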

How the data were processed

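RNA of singly sorted cells was reverse transcribed from oligo(dT) with a cell barcode and a molecular identifier, amplified, pooled and captured at 3' ends, per the labels' protocols. TopHat2 2.0.12, HTSeq, Seurat 2.0 and the build mm10 appear in the submitters' processing notes, which do not say here what each did. The file deposited by the authors is a table of raw counts, genes by cells; whether these are reads or molecules is not stated in the sources used here, and amplification would widen the true error. All 58 columns were used, and no cell was removed.

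Counts were summed per set (3410149 in LT-HSC 1-16, 6520982 in LT-HSC 17-34, 1288026 in CMP 1-2 and 5774711 in CMP 3-24) and scaled to CPM with exact Poisson 95% intervals. Log2 ratios had 0.5 added to each count and exact conditional binomial intervals. Genes entered a comparison with at least 20 counts over both pools. The ratio script was tested on simulated data. The members, sets and lists were chosen with earlier results of these data known. From each list, the 3 genes with the largest LT-HSC 1-16 to LT-HSC 17-34 ratio, with at least 50 counts and no cell holding most of them, were eligible for naming; the genes most alike in pattern were the first 8 over all cells and the first 5 within a set. Marker and overlapping genes with values, and the abundant genes of the heat shock sum, were named after those values were seen. Some genes that these rules select are not reported here. Promoters and positions came from RefSeq (GRCm38.p6) and GENCODE M21, the same build as mm10. The work used Python 3.11.15, numpy 2.4.6, pandas 2.3.3, scipy 1.17.1 and matplotlib 3.10.9. Alternatives were other scalings, thinning, other count minimums, and leaving out cells.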

Additional observations from a re-analysis of the deposited data

How the results depend on the processing

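No list median or member ratio that was at least 2-fold changed its direction under any alternative run, and every count of members past 2-fold stayed within 1.5 times its value (94 such values). Among ratios of single genes, 210 values moved beyond their counting interval and 260 did not. From leaving out each cell, only the lowest and highest value of a gene entered these numbers, so they are not a plain share of alternatives. Among shares of cells, 29 moved and 31 did not. The list median of LT-HSC to CMP (-0.92) was -0.76 with median-of-ratios scaling, -1.01 without shallow cells, -1.07 after thinning and, chosen after seeing the data, -1.17 without CMP 1 and 2. That of LT-HSC 1-16 to LT-HSC 17-34 (2.15) was 2.32 after thinning and 1.85 with every member that had a count. That of LT-HSC 1-16 to CMP 3-24 (-0.039) was -0.30 as the mean of cell CPM, 0.22 with median-of-ratios scaling, 0.11 without ribosomal protein counts, -0.37 after thinning and, chosen after seeing the data, -0.32 with CMP 17-24 only. After thinning, LT-HSC 17-34 to CMP 3-24 (-2.48) was -2.92 and CMP 1-2 to CMP 3-24 (-3.95) was -3.28. Leaving out each cell in turn gave -1.14 to -0.76, 1.91 to 2.67, -0.45 to 0.091, -2.74 to -2.32 and -5.21 to -3.57 in the same order of comparisons. The cause of these shifts was not tested. Median-of-ratios scaling also moved the median of all genes, for example from -0.36 to -0.11 for LT-HSC 1-16 to CMP 3-24. No paired analysis was possible because no label ties a cell to an animal, cell numbers only name cells, and no result comes from a test. Depth limits the genes with few counts: Atf3 in LT-HSC, and Jun, Egr1 and Atf3 in CMP 1-2.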
